A study of Mus musculus with 13 samples.

Results

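The genes that keep the mitochondrial network fused, divide it and clear damaged mitochondria were followed through the retinae of PGC-1α knockout (KO) and wildtype (WT) mice with and without a damaging exposure to light. They are 9 genes: Mfn1, Mfn2 and Opa1 for fusion, Dnm1l and Fis1 for fission, and Pink1, Park7, Bnip3 and Bnip3l for mitophagy and mitochondrial quality control. A gene was taken from probe sets whose annotation gives exactly 1 symbol and that symbol is one of these, which left 11 of 21640 such probe sets and 9 of 19937 genes. Bnip3 and Bnip3l had 2 probe sets each and the other members 1 each.

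Each of 13 mice gave 1 microarray (Affymetrix Mouse Gene 1.0 ST), run on RNA of its 2 retinae together. KO dark (3 arrays) and WT dark replicates 1 to 3 came from female mice kept in the dark. KO light (3 arrays) and WT light (3 arrays) came from male mice exposed to 15000 lux of white light for 2 h, and WT dark replicate 4 from a male mouse kept in the dark. The KO mice carry a global deletion of PGC-1α on a C57 BL/6 background, lifelong and in every cell type, and were a gift of another laboratory, whereas the WT mice were purchased C57 BL/6 NRj animals, so that genotype and source of the mice cannot be told apart. By the methods all mice were male and between 6 and 13 weeks of age, were dark adapted overnight and had their pupils dilated before exposure, and recovered in darkness overnight after it. The description of the series differs from the methods on the time between light and sampling. The labels give females for the dark groups, so that sex and light cannot be told apart in the 12 arrays compared. Fewer cells of a type and less RNA per cell cannot be told apart either in RNA from whole retinae.

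Mitochondria form a network that is continually fused and divided. The GTPases MFN1 and MFN2 join outer membranes and OPA1 joins inner membranes and keeps the cristae in shape, while the GTPase DRP1, encoded by Dnm1l, is drawn to the outer membrane by adaptors such as FIS1 and MFF and cuts the organelle. Damaged mitochondria are removed by mitophagy, either through the kinase PINK1, which builds up on depolarized mitochondria and activates the ubiquitin ligase Parkin, or through the outer membrane receptors BNIP3 and BNIP3L, which bind the autophagosome directly and are classical targets of hypoxia signalling. PARK7, also called DJ-1, is a sensor of oxidative stress. Photoreceptors pack mitochondria into the inner segment, ganglion cells depend on OPA1, which is the gene of dominant optic atrophy, and PGC-1α is known to act with the nuclear receptor ERRα on Mfn2 in muscle.

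A pair of arrays resembled other groups than those of their labels, which touches every value of KO light. Over all genes KO light 3 correlated better with the WT dark arrays (mean r = 0.997) than with KO light 1 and 2 (0.992), and WT dark 4 better with KO light 1 and 2 (0.997) than with the other WT dark arrays (0.989). Values are given first with the labels as they stand, with WT dark 4 left out of the fit, and then with WT dark 4 entered as the third KO light array and KO light 3 left out, which is called the exchanged arrays. KO light 1 and 2 belong to the group in both. The targeted gene gave no check of the labels, since Ppargc1a was at a log2 intensity of 9.96 to 10.40 in KO arrays and of 9.85 to 10.03 in WT arrays, and where its probes lie relative to the deletion is not known here. The rod transducin gene Gnat1, a defining gene of retina, was at 13.62 to 13.80 in every array.

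Of the 9 genes, 8 had promoter windows in the RefSeq table for the build GRCm38.p6, 12 windows in all, and Bnip3l had none there. The 250 bases before the start site are shown for Park7 and Pink1, whose levels moved together over the arrays (r = 0.92 over 13 arrays that share groups and processing), and for Bnip3, a classical target of hypoxia signalling. Park7 and Pink1 lie on chromosome 4 and Bnip3 on chromosome 7. Capitals mark matches to motifs searched on both strands, and each sequence runs 5′ to 3′ on the minus strand.
Park7, chr4:150909922-150910171: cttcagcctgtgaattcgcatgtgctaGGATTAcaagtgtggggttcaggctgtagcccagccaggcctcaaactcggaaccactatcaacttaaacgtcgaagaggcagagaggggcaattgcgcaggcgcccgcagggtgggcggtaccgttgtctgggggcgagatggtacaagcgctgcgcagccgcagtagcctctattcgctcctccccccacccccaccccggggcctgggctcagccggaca
Pink1, chr4:138326297-138326546: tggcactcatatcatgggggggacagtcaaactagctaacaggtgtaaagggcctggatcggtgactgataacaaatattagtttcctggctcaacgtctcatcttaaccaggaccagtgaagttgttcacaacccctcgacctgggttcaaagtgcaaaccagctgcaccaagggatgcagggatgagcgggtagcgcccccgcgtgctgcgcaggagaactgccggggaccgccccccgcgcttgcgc
Bnip3, chr7:138909507-138909756: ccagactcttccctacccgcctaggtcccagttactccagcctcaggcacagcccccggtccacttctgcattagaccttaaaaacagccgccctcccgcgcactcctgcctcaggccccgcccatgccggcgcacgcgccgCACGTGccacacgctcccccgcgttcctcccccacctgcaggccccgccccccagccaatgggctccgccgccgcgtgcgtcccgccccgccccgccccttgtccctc
The match in Park7 is GGATTA, the other strand of the site TAATCC of the photoreceptor factor CRX, which 7.06% of the 32851 promoters in the table hold on either strand. The match in Bnip3 is the E-box CACGTG, held by 7.15% of promoters. It contains ACGTG, a form of the core of the hypoxia response element, held by 19.6%. The form GCGTG was not searched. Shares were counted over windows of 250 bases before and 50 after the start. Pink1 has no match to the searched motifs in the bases shown. In windows not shown, ACGTG was at 1 position of Mfn2, which 2 of its 3 overlapping windows hold, and TAATCC in 1 of the 2 of Fis1. The half-site AAGGTCA of the ERR receptors, held by 4.72% of promoters, was in none of the 12 windows, which says only that these letters are not there.

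Mfn2 had lower values in KO than in WT, Park7 and Pink1 had higher values after light, and Bnip3l had its lowest values in WT light, but with the arrays as labelled no member passed the test in any comparison. A gene was called where its limma p-value, adjusted over all genes, was under 0.05 and its ratio was 1.2 or more, or 0.87 or less. Called were 0 of 9 members for KO dark vs WT dark, where 0.0752% of all genes were called, 0 for KO light vs WT light (0.176% of all genes), 0 for KO light vs KO dark (0.100%), 0 for WT light vs WT dark (0.431%) and 0 for the interaction of genotype and light (0.0602%), which was called on the adjusted p alone. At an unadjusted p under 0.05 with no limit on the ratio, the members past it were Mfn2 for KO dark vs WT dark (7.10% of all genes passed), Mfn2 and Bnip3l for KO light vs WT light (12.9%), Mfn2, Park7 and Bnip3l for KO light vs KO dark (13.9%), Mfn1, Mfn2, Park7 and Bnip3l for WT light vs WT dark (17.1%), and none for the interaction (6.86%). The same 4-group model without moderated variances, which is closest to the methods, also called 0 members in each comparison. The paper, in contrast, lists Mfn2 as significantly changed in all 4 comparisons of groups. With the arrays as labelled Mfn2 passed only the unadjusted threshold in these 4. The paper also reports more changed genes in each of them than were called with the arrays as labelled. The fits as labelled therefore do not reproduce its gene lists, and the reason was not tested. The exchanged arrays called 1640 genes for KO light vs WT light and 2653 for KO light vs KO dark. They called 880 for WT light vs WT dark and 175 for KO dark vs WT dark. These counts are nearer to those of the paper, though below each, and the genes themselves were not compared.

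Once the arrays were exchanged, Park7 was called for KO light vs KO dark, and Park7 and Bnip3l for WT light vs WT dark. That is 1 of 9 members where 13.3% of all genes were called and 2 of 9 where 4.41% were, and 0 of 9 for KO light vs WT light (8.23%) and for KO dark vs WT dark (0.878%). Of the 2 probe sets of Bnip3l only 10394800 was called for WT light vs WT dark. On the adjusted p alone the counts were 3 for KO light vs KO dark (21.7% of all genes), with Mfn2 and Pink1 beside Park7, and 3 for WT light vs WT dark (7.60%), with Mfn2 beside Park7 and Bnip3l. They were 2 for KO light vs WT light (11.9%), which were Mfn2 and Bnip3l, 0 for KO dark vs WT dark (1.02%) and 0 for the interaction (2.78%). With the array labelled KO light 3 left out and nothing put in its place, Park7 and Pink1 were called for KO light vs KO dark (9.94% of all genes), Park7 and Bnip3l for WT light vs WT dark (4.30%), and none for KO light vs WT light (5.24%), KO dark vs WT dark (0.853%) or the interaction (1.32%).

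**Figure D1:**
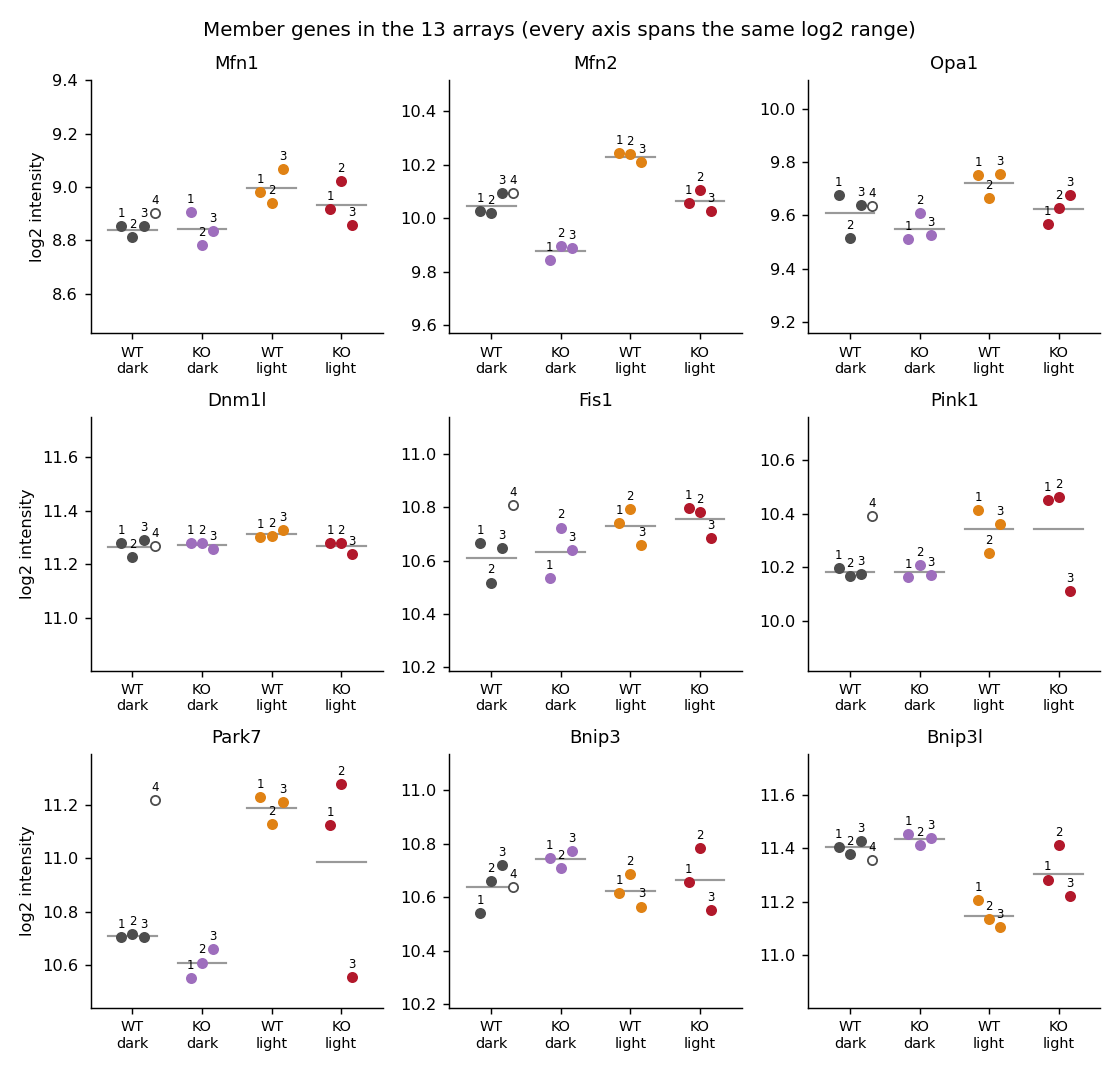
Log2 intensity of each of the 9 genes in each of the 13 arrays, with the replicate number above each point and a grey bar for the mean of the arrays in the fit, and the open circle for WT dark 4, which is not in that mean. Every panel spans the same log2 range. Mfn2 lies lower in KO than in WT within dark and within light, and for Park7 and Pink1 the array KO light 3 lies with the dark arrays and WT dark 4 with the light arrays.

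Among the fusion genes Mfn2 was lower in KO than in WT and higher after light than in the dark. In KO dark its log2 intensity was 9.84, 9.90 and 9.89 in replicates 1 to 3, and in WT dark 10.03, 10.02 and 10.09. After light it was 10.06, 10.10 and 10.03 in KO and 10.24, 10.24 and 10.21 in WT. The KO arrays lay below the WT arrays in the dark and again after light with no overlap, and each genotype lay higher after light than in the dark. The means ran from KO dark (9.88 ± 0.029, SD, n = 3) over WT dark (10.05 ± 0.041) and KO light (10.06 ± 0.038) to WT light (10.23 ± 0.019), and the middle pair did not differ beyond its spread.

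The difference of Mfn2 between the genotypes was -0.17 on the log2 scale in the dark (SE 0.04, 95% confidence interval -0.27 to -0.07, limma adjusted p = 0.209) and -0.17 after light (-0.26 to -0.07, adjusted p = 0.153). The difference between light and dark was 0.19 in KO (0.09 to 0.28, adjusted p = 0.130) and 0.18 in WT (0.09 to 0.28, adjusted p = 0.0771). The light difference of KO minus that of WT was 0.0030, with an interval of -0.13 to 0.14. The adjusted p with the exchanged arrays was 0.0701 for the genotypes in the dark, 0.0320 after light, 0.00252 for light in KO and 0.0161 for light in WT. None of the ratios reached the limits: they were 0.889 and 0.904 between the genotypes and 1.16 and 1.14 between light and dark. The array labelled KO light 3, at 10.03, lay in the range of WT dark for Mfn2 and above every KO dark array.

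Mfn1, the partner of Mfn2 in the outer membrane, showed no such difference between the genotypes. It was at 8.91, 8.78 and 8.83 in KO dark and at 8.85, 8.81 and 8.85 in WT dark. After light it was at 8.92, 9.02 and 8.86 in KO and at 8.98, 8.94 and 9.07 in WT. All WT light arrays lay above all WT dark arrays, while KO light and KO dark overlapped. The mean was higher after light by 0.16 in WT (SE 0.06, adjusted p = 0.190) and by 0.09 in KO (adjusted p = 0.504), and the genotypes differed by 0.0023 in the dark (95% interval -0.12 to 0.12). For Mfn1 no comparison passed the adjusted threshold with the exchanged arrays either, the lowest adjusted p being 0.0796 for WT light vs WT dark.

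Opa1, the fusion GTPase of the inner membrane, was at 9.51, 9.61 and 9.53 in KO dark and at 9.68, 9.52 and 9.64 in WT dark. It was at 9.57, 9.63 and 9.68 in KO light and at 9.75, 9.66 and 9.76 in WT light. Neighbouring groups overlapped, and the order of the means was KO dark, WT dark, KO light, WT light, as for Mfn2. The KO minus WT difference of Opa1 was -0.06 in the dark and -0.10 after light, with adjusted p-values of 0.933 and 0.484. The light minus dark difference was 0.07 in KO and 0.11 in WT, with adjusted p-values of 0.602 and 0.328.

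Of the fission genes, Dnm1l was the steadiest of the 9 members. It stayed between 11.23 and 11.33 in all 13 arrays, with SDs within the groups of 0.013 to 0.034. Its differences were 0.0069 between the genotypes in the dark (95% interval -0.08 to 0.10), -0.04 after light (-0.13 to 0.04), -0.0048 for light in KO (-0.09 to 0.08) and 0.05 for light in WT (-0.04 to 0.14). All of these intervals end inside the limits of a ratio of 0.87 and 1.2.

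Fis1 varied more within its groups than Dnm1l. It was at 10.53, 10.72 and 10.64 in KO dark and at 10.67, 10.52 and 10.65 in WT dark. After light it was at 10.80, 10.78 and 10.68 in KO and at 10.74, 10.79 and 10.66 in WT. The array labelled WT dark 4 had 10.81, the highest value of Fis1 in the series. The mean was higher after light by 0.12 in KO (adjusted p = 0.426) and by 0.12 in WT (adjusted p = 0.363). The difference in KO with the exchanged arrays was 0.16 (adjusted p = 0.0633), and the 3 KO light arrays then lay above all KO dark arrays.

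Park7 showed the largest difference between light and dark among the 9 genes, and the array labelled KO light 3 lay with the dark arrays. It was at 10.55, 10.61 and 10.66 in KO dark and at 10.71, 10.72 and 10.70 in WT dark. In WT light it was at 11.23, 11.13 and 11.21, above every array of the dark groups in the fit. In KO light it was at 11.12 and 11.28 in replicates 1 and 2 but at 10.55 in replicate 3, and the array labelled WT dark 4 had 11.22. The difference between light and dark in WT was 0.48 (SE 0.13, ratio 1.39), with an adjusted p of 0.111, and 0.35 with WT dark 4 counted in its labelled group (adjusted p = 0.422). As labelled it was 0.38 in KO (SE 0.13, adjusted p = 0.247).

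With the exchanged arrays Park7 rose by 0.60 in KO (SE 0.05, 95% interval 0.49 to 0.71, ratio 1.52, adjusted p = 1.0e-05) and by 0.48 in WT (0.37 to 0.59, ratio 1.39, adjusted p = 0.00027). The values of WT were the same arrays in both fits, and the spread of Park7 in the KO light group went from an SD of 0.38 to 0.078. In WT Park7 was also called in a fit of the 2 WT groups alone, where no KO array enters (adjusted p = 0.00309). The rise did not differ detectably between the genotypes, the difference of KO minus WT being 0.12 with an interval of -0.03 to 0.27 and an adjusted p of 0.444. Between the genotypes Park7 differed by -0.10 in the dark (adjusted p = 0.969), where the 3 KO arrays lay below the 3 WT arrays. After light the difference was -0.20 as labelled and 0.02 with the exchanged arrays (adjusted p = 0.565 and 0.863).

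Pink1, the kinase at the head of the Parkin pathway, had the pattern of Park7 on a smaller scale. It was at 10.16, 10.21 and 10.17 in KO dark and at 10.20, 10.17 and 10.17 in WT dark, a narrow band shared by both genotypes. In WT light it was at 10.41, 10.25 and 10.36, all above the dark arrays in the fit. In KO light it was at 10.45 and 10.46 in replicates 1 and 2 and at 10.11 in replicate 3, the lowest value of all arrays, and WT dark 4 had 10.39. As labelled the difference was 0.16 in KO (adjusted p = 0.407) and 0.16 in WT (adjusted p = 0.335). The exchanged arrays gave 0.25 in KO (95% interval 0.15 to 0.36, adjusted p = 0.00196), with a ratio of 1.19 that missed the limit, and with KO light 3 left out it was 0.28 (adjusted p = 0.00468) and Pink1 was called. In WT the adjusted p stayed at 0.0530 with the exchanged arrays.

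Sex went with light in the 12 arrays, and the array labelled KO light 3 was male by its own levels. Its Uty, a gene of the Y chromosome, was at 9.11, against 4.14 to 4.42 in the female arrays, and its Xist at 5.31, against 11.86 to 12.02 in the female arrays. The part of sex and of light in the differences cannot be told apart.

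**Figure D2:**
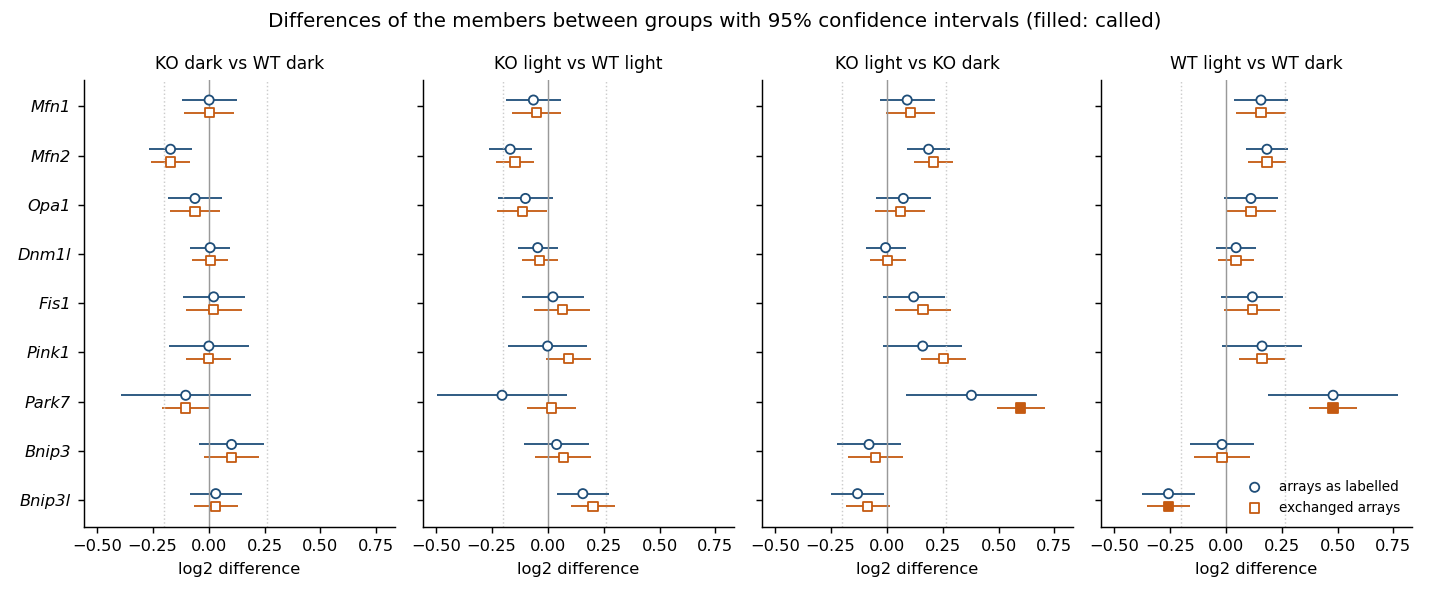
Log2 difference of each gene in the 4 comparisons, with 95% confidence intervals, for the arrays as labelled (circles) and the exchanged arrays (squares). Dotted lines mark ratios of 0.87 and 1.2 and filled symbols are called. Park7 and Bnip3l are filled, with the exchanged arrays, for WT light vs WT dark and Park7 for KO light vs KO dark, and the intervals of Park7 are much narrower there.

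Bnip3l, a mitophagy receptor of the outer membrane also called NIX, had the most negative difference between light and dark among the 9 genes. Averaged over its 2 probe sets it was at 11.45, 11.41 and 11.44 in KO dark and at 11.40, 11.38 and 11.43 in WT dark. In WT light it was at 11.21, 11.13 and 11.10, below every other array. In KO light it was at 11.28, 11.41 and 11.22, and WT dark 4 had 11.36. The light difference in WT was -0.26 (SE 0.05, ratio 0.838), with an adjusted p of 0.0606 as labelled and of 0.00689 with the exchanged arrays, where it was called. In KO it was -0.13 as labelled (adjusted p = 0.311) and -0.08 with the exchanged arrays (adjusted p = 0.210).

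After light Bnip3l was higher in KO than in WT by 0.16 as labelled (adjusted p = 0.259) and by 0.20 with the exchanged arrays (95% interval 0.10 to 0.30, adjusted p = 0.0114), with a ratio of 1.15 that missed the limit for the average of its probe sets. In the dark the genotypes differed by 0.03 (adjusted p = 0.982). The light difference of KO minus that of WT was 0.17 with the exchanged arrays, with an unadjusted p of 0.0196 and an adjusted p of 0.196, so that an unequal response of the genotypes did not pass the test.

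The change of Bnip3l rested on 1 of its 2 probe sets. Probe set 10394800 was at 11.18, 11.16 and 11.18 in KO dark and at 11.21, 11.11 and 11.18 in WT dark. It was at 10.87, 10.69 and 10.66 in WT light and at 10.92, 11.16 and 10.85 in KO light. Its light difference in WT was -0.42 (SE 0.08, ratio 0.746) and was called with the arrays as labelled when the fit ran per probe set (adjusted p = 0.0445). Probe set 10421003 was at 11.60, 11.65 and 11.67 in WT dark and at 11.54, 11.57 and 11.54 in WT light. Its light difference in WT was -0.09 (SE 0.04), with a limma adjusted p of 0.324 as labelled and of 0.193 with the exchanged arrays. The groups of WT did not overlap in either probe set, and only 10394800 passed the test. For KO light vs WT light with the exchanged arrays 10394800 was called as well, with a difference of 0.30 (SE 0.07, ratio 1.23, adjusted p = 0.0133), and 10421003 had 0.11 (adjusted p = 0.0960). As labelled these differences were 0.24 and 0.08, with adjusted p-values of 0.251 and 0.484.

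The annotation gives both probe sets the same gene and the same RefSeq transcripts, but their numbers place them apart. Of the 20 probe sets with the nearest IDs, 10 on each side, 19 belong to genes of chromosome 14 for 10421003, which is the chromosome of Bnip3l. For 10394800 none of the 20 belongs to chromosome 14 and 19 belong to chromosome 12, where RefSeq lists the pseudogene Bnip3l-ps. The value of Bnip3l is therefore uncertain, since signal of the gene and of a possible copy could not be separated here.

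Bnip3 has the same trait. Its probe set 10568785 has 20 of 20 neighbours on chromosome 7, the chromosome of Bnip3, and its probe set 10414269 has 20 of 20 on chromosome 14 and none on chromosome 7. Averaged over both, Bnip3 was at 10.75, 10.71 and 10.77 in KO dark and at 10.54, 10.66 and 10.72 in WT dark. It was at 10.66, 10.78 and 10.55 in KO light and at 10.62, 10.69 and 10.57 in WT light. No difference of Bnip3 passed, the sizes running from -0.08 for light in KO to 0.10 for KO vs WT in the dark (adjusted p = 0.651 and 0.866). For light in WT the probe sets had opposite signs, 0.07 for 10414269 and -0.10 for 10568785, with adjusted p-values of 0.736 and 0.409.

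**Figure D3:**
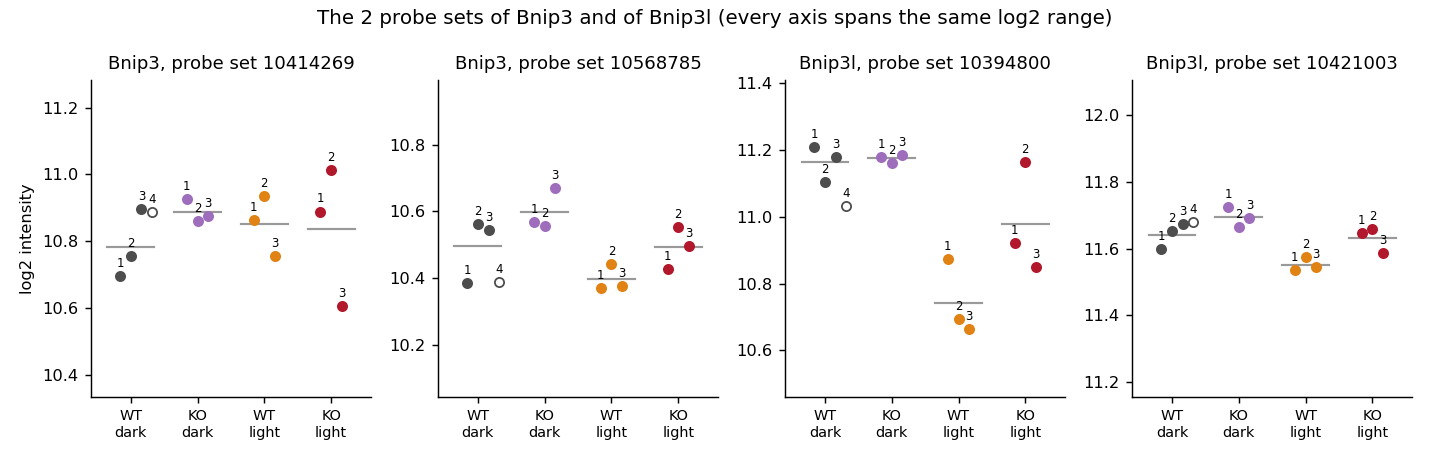
Log2 intensity of the 2 probe sets of Bnip3 and of Bnip3l in each array, numbered by replicate, with a bar for the mean of the arrays in the fit and an open circle for WT dark 4. In probe set 10394800 the 3 WT light arrays lie at 10.66 to 10.87 and the WT dark arrays in the fit at 11.11 to 11.21, whereas in 10421003 they lie at 11.54 to 11.57 and 11.60 to 11.67.

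The array labelled KO light 3 was not like the dark arrays in every member. In Park7 and Pink1 it lay with the dark arrays, and in probe set 10394800 of Bnip3l, at 10.85, it lay in the range of WT light.

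Markers of reactive glia were highest in KO light 1, KO light 2 and WT dark 4, where Park7 and Pink1 were high as well. The mean log2 level of the 9 listed genes, all measured, was 8.05 to 8.11 in KO dark, 7.96 to 8.19 in WT dark replicates 1 to 3 and 8.31 to 9.01 in WT light. It was 9.96, 9.68 and 8.29 in KO light 1 to 3 and 10.13 in WT dark 4. With the exchanged arrays 9 of 9 of these genes were called higher in KO light vs KO dark, against 7.01% of all genes. In WT light vs WT dark 4 of 9 were called higher, against 2.13%, and the mean was higher in 9 of 9. Median differences were 1.79 and 0.43, and as labelled 0 of 9 were called in either comparison. No marker is at 0 on an array, and Gfap, the defining gene of the list, ran from 7.07 to 9.88. In the glial mean KO light 3 was near WT light 1, at 8.29 and 8.31. Park7 was at 10.55 and 11.23 in these arrays, and Pink1 at 10.11 and 10.41. The part of the glial markers in the differences of the members was not tested. Microglia markers were highest in KO light 1, KO light 2 and WT dark 4 as well. Their means over 8 genes were 6.84, 6.87 and 6.91 there and 6.60 to 6.74 in the other arrays. For WT light vs WT dark 3 of 8 microglia genes had a higher mean, with a median difference of -0.05. With the exchanged arrays 3 of 8 microglia genes were called higher and 1 lower in KO light vs KO dark, and 5 of 8 had a higher mean. The part of microglia markers was not tested either.

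Photoreceptor markers had their lowest means in KO light 1, KO light 2 and WT dark 4. The mean of 8 rod genes was 12.01, 12.16 and 12.22 in KO light 1 to 3 and 11.96 in WT dark 4, against 12.26 to 12.36 in all other arrays. The mean of 7 cone genes was 9.73, 10.05 and 10.27 in KO light and 9.78 in WT dark 4, against 10.13 to 10.36 elsewhere. Of these, 3 of 8 rod genes and 5 of 7 cone genes were called lower in KO light vs KO dark with the exchanged arrays, against 6.30% of all genes. A higher mean was seen in 1 of 8 rod genes and 1 of 7 cone genes. In WT light the cone means were 10.25, 10.16 and 10.13, all below those of WT dark 1 to 3 (10.33 to 10.36), with a higher mean in 1 of 7 cone genes and a median difference of -0.13, and 0 of 7 cone genes and 0 of 8 rod genes were called. The part of photoreceptor markers in the differences of the members was not tested. Pigment epithelium, horizontal cell and ganglion cell markers had lower means in WT light than in WT dark 1 to 3, as Bnip3l had. The mean of 7 pigment epithelium genes was 7.38, 6.73 and 7.12 in WT light and 7.54, 7.69 and 7.44 in WT dark 1 to 3, with a higher mean in 0 of 7, a median difference of -0.30 and 1 called lower, also as labelled. The mean of 4 horizontal cell genes was 7.87 to 7.94 in WT light and 8.04 to 8.19 in WT dark 1 to 3. With the exchanged arrays 2 of 4 were called lower, against 2.29% of all genes, and 1 of 4 had a higher mean. The mean of 6 ganglion cell genes was 9.23 to 9.28 in WT light and 9.31 to 9.47 in WT dark 1 to 3. With the exchanged arrays 1 of 6 was called lower, and 1 of 6 had a higher mean. The part of these marker lists in the difference of Bnip3l was not tested. Lens genes ran from a mean of 6.78 to 9.02 within and across groups, highest in WT light 1 and KO light 1. For KO dark vs WT dark, as labelled, amacrine markers had a higher mean in 7 of 7 genes (median difference 0.12). Of these 1 was called higher, against 0.0301% of all genes. A higher mean was seen in 6 of 7 Müller glia genes (median 0.05) and in 0 of 6 endothelium and pericyte genes (median -0.13). For rod genes it was 1 of 8 (median -0.03). The part of these lists in the lower Mfn2 of KO dark was not tested.

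**Figure D4:**
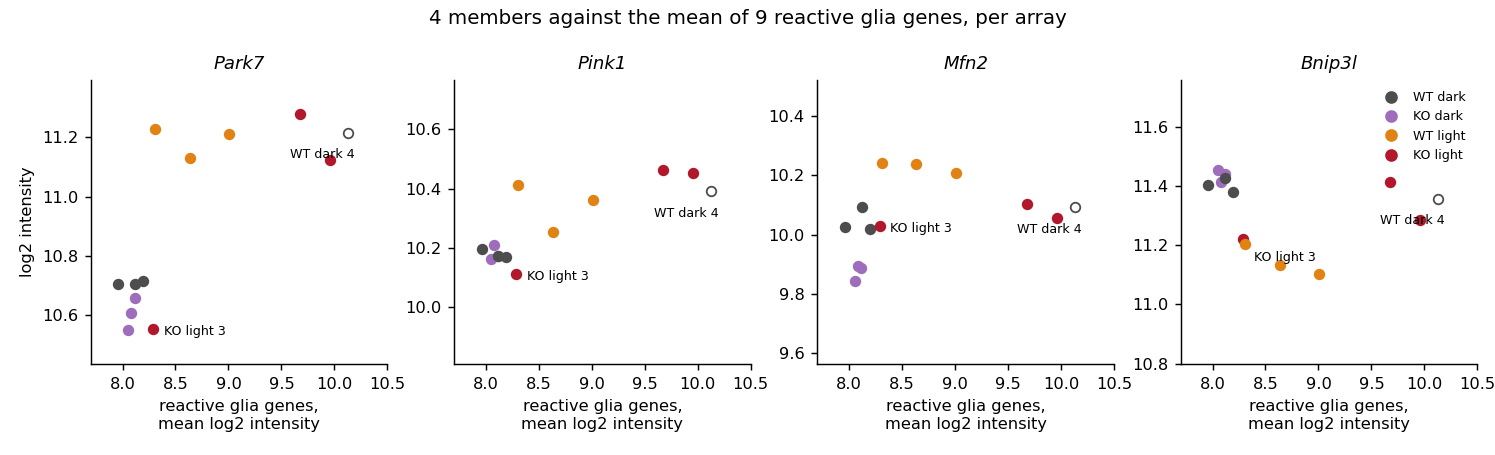
Log2 intensity of Park7, Pink1, Mfn2 and Bnip3l in each array against the mean log2 intensity of 9 reactive glia genes, coloured by group. WT dark 4 is open. Park7 is at 11.13 to 11.23 in the WT light arrays over glial means of 8.31 to 9.01, and KO light 3 lies among the dark arrays for Park7 and Pink1.

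The wider machinery was read through 86 other genes in 7 lists, of which 80 were measured. With the arrays as labelled 0 of 80 were called in each comparison, and the medians lay near those of all genes, at 0.06 against 0.02 for WT light vs WT dark and at 0.04 against -0.0033 for KO light vs KO dark. The list of OPA1 processing and inner membrane shape, which holds the proteases that cut OPA1 and the proteins of the cristae junctions, had a higher mean in 13 of its 15 measured genes for WT light vs WT dark (median 0.11), where 11187 of 19937 genes had a higher mean. For KO dark vs WT dark it was 3 of 15 (median -0.07), where 10293 of all genes had a higher mean. For KO light vs WT light it was 1 of 15 as labelled (median -0.10), where 8667 of all genes had a higher mean. It was 5 of 15 there with the exchanged arrays (median -0.08) and also without KO light 3. The PINK1 and Parkin pathway had a higher mean in 9 of 11 for WT light vs WT dark (median 0.10), and the fission adaptors and factors in 2 of 9 (median -0.05). As labelled none of these genes passed the test.

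Of the 80 genes, 10, or 12.5%, were called for KO light vs KO dark with the exchanged arrays, against 13.3% of all genes. Among outer membrane partners Mul1, a ubiquitin ligase of the outer membrane, rose by 0.32 (adjusted p = 0.00663). Of the inner membrane list Samm50 of the outer membrane sorting machinery rose by 0.38, the cardiolipin-binding Stoml2 by 0.35 and the prohibitin Phb2 by 0.31. Of the mitophagy receptors and adaptors, Sqstm1, which encodes the autophagy cargo adaptor p62, rose by 0.46 and Nipsnap1 by 0.41, and of the Parkin pathway the voltage-dependent channel Vdac3 by 0.27. Of the autophagy core Atg16l1, needed for lipidation of LC3, rose by 0.48 and the LC3 gene Map1lc3a by 0.33. Mtfp1, a fission factor of the inner membrane, fell by 0.23. Adjusted p-values of these genes ran from 0.00010 to 0.0176.

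For WT light vs WT dark the exchanged arrays gave 2 of 80 called genes, or 2.50% against 4.41% of all genes: Stoml2 rose by 0.37 and the LC3 homologue Gabarapl2 by 0.27. For KO light vs WT light they gave 5 of 80, or 6.25% against 8.23%. Gabarap, another LC3 homologue, was higher in KO by 0.31, Nipsnap1 by 0.28 and Map1lc3a by 0.28, while the differences of Mtfp1 and of Oma1, the stress protease that cleaves OPA1, were -0.32 and -0.23. The light response of Map1lc3a differed between the genotypes, by 0.37 (adjusted p = 0.0171), and was the single one of the 80 that did. For KO dark vs WT dark 0 of 80 were called. None of the 6 mitochondrial transport genes was called in any of these fits.

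**Figure D5:**
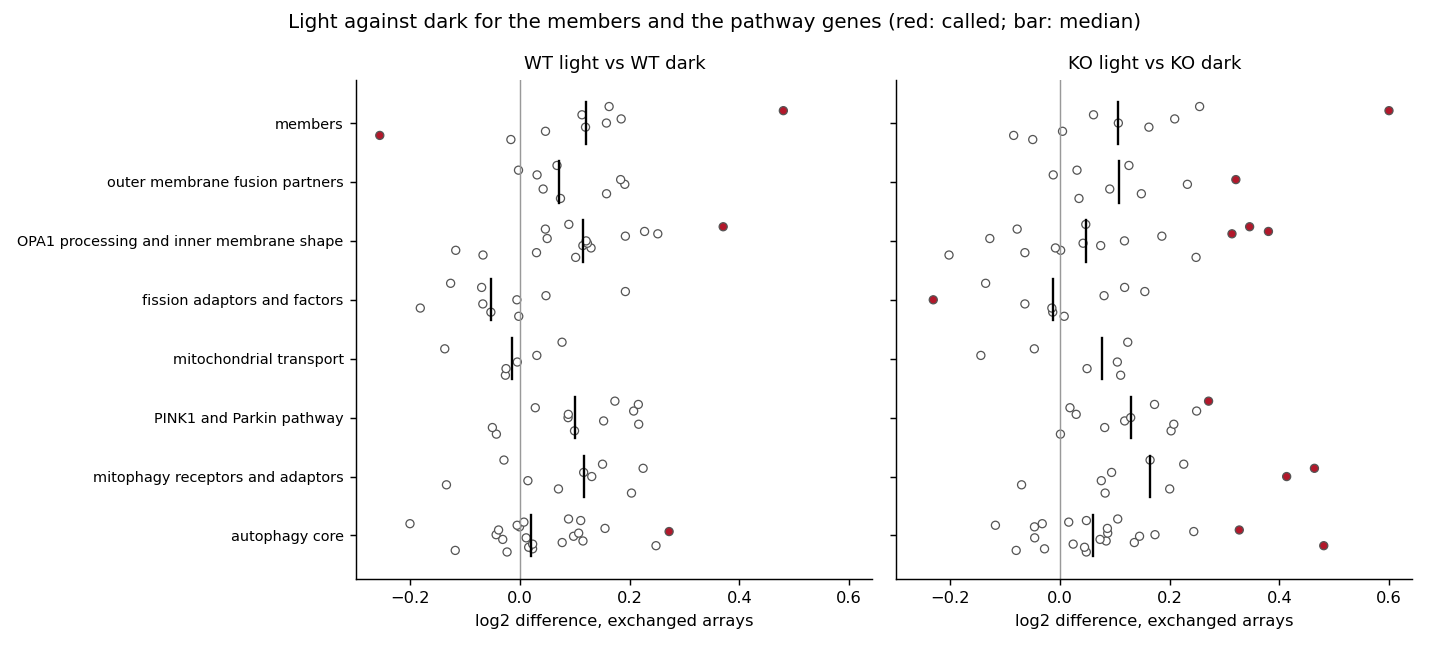
Log2 difference between light and dark of the 9 members and of the measured genes of the 7 pathway lists with the exchanged arrays, for WT (left) and KO (right). Each point is a gene, red points are called and bars are medians. Park7 is the point farthest to the right in both panels, at 0.48 and 0.60, and Bnip3l the one farthest to the left in WT, at -0.26.

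Of 13 targets of the hypoxia-inducible factor HIF, fixed as a list because Bnip3 and Bnip3l belong to that response, 0 were called with the arrays as labelled. The exchanged arrays called 1 of 13 (7.69%, against 0.878% of all genes) for KO dark vs WT dark, 2 of 13 (15.4%, against 8.23%) for KO light vs WT light, 1 of 13 (7.69%, against 4.41%) for WT light vs WT dark and 0 for KO light vs KO dark. The prolyl hydroxylase gene Egln3 was higher in KO by 0.38 in the dark and by 0.42 after light, and the stress gene Ddit4 rose by 0.31 for light in WT and differed by -0.27 between KO and WT after light. Averaged over their probe sets, Bnip3 and Bnip3l were not called with a higher level in any of these comparisons. In the fit per probe set, 10394800 of Bnip3l was called higher for KO light vs WT light with the exchanged arrays, by 0.30.

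Over the 13 arrays the genes whose log2 profile was most like that of each member were named from 18272 genes by Pearson's r, as a description of arrays that share groups and processing. For Park7 they were Insig2 (r = 0.98) and Bloc1s3 (0.97), and for Pink1 Tpi1 (0.96) and Hspa13 (0.96). For Mfn2 they were Atp5g1 (0.96) and Cox5a (0.95), and for Mfn1 Eny2 (0.94) and Ireb2 (0.92). For Opa1 they were Vipas39 (0.93) and Zfx (0.93), for Dnm1l Mynn (0.94) and Dnajb6 (0.92), and for Fis1 Arih2 (0.92) and Dpm3 (0.91). For Bnip3l they were Pkp4 (0.91) and Slain1 (0.91), and the profile of Bnip3 was matched least closely, by Ak4 (0.85) and Spats2l (0.84).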

How the data were processed

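Retinal RNA of 13 mice was measured on Affymetrix Mouse Gene 1.0 ST arrays. The deposited values are intensities per probe set on a linear scale, made by the authors with Partek and Bioconductor. The sources used here give no versions, summarization, normalization or genome build. The labels name Trizol for RNA extraction and the methods another kit.

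Intensities were taken to log2 and averaged per gene over the 21640 of 34760 probe sets with exactly 1 symbol (1321 had several and 11799 none), giving 19937 genes. With limma 3.58.1 (R 4.3.3) a 4-group linear model with moderated variances was run on 12 arrays, and the Benjamini-Hochberg adjustment took in every gene. Calls needed an adjusted p under 0.05 with a ratio of 1.2 or more, or 0.87 or less, and for the interaction the adjusted p alone. The number of arrays, 3 a group, limits the precision, and probe set backgrounds were not used here.

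All 9 members are named. In the pathway and HIF lists the called genes are named, and for each member the 2 genes with the highest r. The members and lists, including 14 lists of cell type markers, were chosen with earlier results of these data known. Numbers of neighbouring probe sets were looked at after the values had been seen. Alternatives were the exchanged arrays, all 13 arrays, unmoderated variances, quantile normalization, a filter on level, a fit per probe set, log2(value + 16), only the 2 groups compared, a replicate block and leaving out each array. The fit was tested on simulated data. Promoters were taken from RefSeq for GRCm38.p6, with 250 bases before and 50 after each start.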

Additional observations from a re-analysis of the deposited data

Results flagged for a closer look

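Of the 9 genes, 2 had a value in WT dark 4 far from those of the other 3 WT dark arrays, when the gap to the nearest array was set against the range of the group. Park7 was at 11.22 in that array and at 10.70 to 10.72 in the others. Pink1 was at 10.39 and at 10.17 to 10.20 in the others. Chance gives such a gap in about 1 of 20 independent groups of this size, but here the same arrays were read in 9 genes, so that rate is no measure for them. By the labels WT dark 4 was also the only male of its group. In the same array the mean of the reactive glia genes was 10.13, against 7.96 to 8.19 in the other WT dark arrays, and its part in the gap was not tested.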

How the results depend on the processing

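Over 45 differences, 9 genes in 5 comparisons, 828 values under the alternatives kept the direction and the side of the threshold, 13 passed it and 50 changed sign, 35 of these with 1 array left out. No member was called as labelled. The number of called members depended on which KO light arrays entered and, for WT light vs WT dark, also on other choices. Members called for KO light vs KO dark were 0 as labelled, 1 with the exchanged arrays and 0 to 2 with 1 array left out, the 2 being without KO light 3. For WT light vs WT dark they were 0 as labelled, 2 with the exchanged arrays, 2 with only the 2 groups compared, 1 each with quantile normalization, the filter on level, log2(value + 16) and the fit per probe set, and 0 to 2 with 1 array left out, the 2 again being without KO light 3 and 1 without KO light 2. In all the other comparisons the count was 0 under each alternative. Of the 80 pathway genes the exchanged arrays called 5 for KO light vs WT light, 10 for KO light vs KO dark, 2 for WT light vs WT dark and 1 for the interaction, against 0 as labelled, and leaving out KO light 3 called 6, 9, 2 and 1. The cause was not tested.

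Signs also turned. For Park7 this was from -0.20 as labelled for KO light vs WT light and from -0.10 for the interaction, and the other differences that turned outside the leave-one-out fits were smaller. For KO dark vs WT dark all 13 arrays gave -0.013 for Mfn1, -0.027 for Fis1 and -0.052 for Pink1, and quantile normalization gave -0.0047 for Mfn1, -6.3e-05 for Dnm1l and -0.0087 for Pink1. For KO light vs WT light the exchanged arrays gave 0.093 for Pink1 and 0.017 for Park7, and quantile normalization 0.0027 for Pink1. For KO light vs KO dark the exchanged arrays gave 0.0047 for Dnm1l. For the interaction of Pink1 the exchanged arrays gave 0.092, all 13 arrays 0.051 and quantile normalization 0.011, and for that of Park7 0.12 and 0.026 came from the exchanged and all 13 arrays.

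With 1 array left out, KO dark vs WT dark ran from -0.031 to 0.031 for Mfn1, from -0.013 to 0.019 for Dnm1l, from -0.024 to 0.072 for Fis1 and from -0.013 to 0.011 for Pink1. KO light vs WT light ran from -0.012 to 0.059 for Fis1, from -0.061 to 0.12 for Pink1, from -0.35 to 0.012 for Park7, where the positive value lacks KO light 3, and from -0.020 to 0.097 for Bnip3. KO light vs KO dark ran from -0.012 to 0.0092 for Dnm1l, from 0.23 to 0.59 for Park7 and from 0.10 to 0.28 for Pink1. WT light vs WT dark ran from -0.067 to 0.024 for Bnip3, from -0.28 to -0.23 for Bnip3l and from 0.46 to 0.51 for Park7. The interaction ran from -0.020 to 0.021 for Mfn2, from -0.071 to 0.0088 for Opa1, from -0.048 to 0.048 for Fis1, from -0.062 to 0.11 for Pink1 and from -0.25 to 0.11 for Park7.

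With the replicate block 0 members were called in each comparison. Of 18 pairs of arrays with the same number, 3 had correlated deviations above 0.1 (r from -0.19 to 0.22). Whether the numbers pair the mice is not settled by this, since arrays with different numbers were not compared. All 9 members passed the filter on level. With 3 arrays a group, small differences of single genes cannot be seen.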

Other observations

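Ppargc1b encodes PGC-1β, the coactivator closest to PGC-1α, and Esrra the receptor ERRα, with which both act. With the exchanged arrays Ppargc1b fell by 0.48 in KO light vs KO dark (limma adjusted p = 0.000494). It was then lower in KO than in WT after light, by a difference of -0.35 (adjusted p = 0.00727). As labelled its difference was -0.26 for KO light vs KO dark (adjusted p = 0.337) and -0.12 for KO light vs WT light (adjusted p = 0.697). The paper reports lower PGC-1β in light-exposed KO mice. The gene did not pass the test here with the arrays as labelled. The level of Ppargc1b was 8.56, 8.80 and 9.17 in KO light 1 to 3 and 8.50 in WT dark 4, against 8.88 to 9.15 in the other arrays. Esrra differed by -0.12 between KO and WT in the dark and did not pass the test (adjusted p = 0.746).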
